A study of Homo sapiens with 6 samples.

Results

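The 10 genes described here make, break down or sense prostaglandins: PLA2G4A, PTGS1, PTGS2, PTGES, PTGES2, PTGES3, PTGIS, HPGD, PTGER2 and PTGER4. They were found by gene name among the 35639 genes of the table, and all 10 were present. The group was built around PTGS2, which was chosen by its lower value in both libraries with the histone variant H3.3-G34W, so its values in the comparisons with that variant are given as a description with no test. The comparison of H3.3-WT with empty vector did not enter that choice.

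Prostaglandins are short-range lipid signals made from arachidonic acid. A phospholipase frees arachidonic acid from membranes, a cyclooxygenase turns it into an unstable intermediate, and terminal synthases convert that intermediate into prostaglandin E2, prostacyclin or other products, which are later inactivated by a dehydrogenase. In bone, prostaglandin E2 made by cells of the osteoblast lineage acts on bone formation and on osteoclast formation, in part through the receptors EP2 and EP4, which raise cyclic AMP.

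RNA was sequenced from hFOB 1.19, a human fetal osteoblastic line that divides at 34 °C, after lentiviral transduction with empty vector (EV), HA-tagged H3.3-WT (WT) or HA-tagged H3.3-G34W (G34W) and sorting for the vector's red fluorescent marker. Cells were kept at 34 °C and collected in duplicate on day 15 after transduction. The study's methods use the word replicates for separate wells within an experiment, but do not say so for the RNA libraries, so p-values measure only the spread between these libraries. The histone transgene has the coding sequence of a Drosophila H3.3 gene, so human histone genes do not check which library carries it. Groups were taken from the titles. The labels' genotype field swaps G34W and WT, so every direction holds for the libraries titled G34W and WT. Values are normalised estimated counts, not read counts, so no sequencing depth or detection limit was worked out.

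The comparisons used EV replicate 2, both WT libraries and both G34W libraries. EV was thus 1 library: in the comparisons with it the spread came from the WT and G34W pairs, and EV replicate 2 is assumed to vary like them. EV replicate 1 was left out: a 0 was listed there for 28688 genes (80.5%), and for 14517 to 16397 genes elsewhere. Of the 10 prostaglandin genes, 7 were listed at 0 in EV replicate 1, and PTGES had 51.6, PTGIS 95.4 and PTGES3 203657 there. The 5 libraries kept had sums of 38821143 to 48024590.

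Replicate 1 of G34W also stood apart. All 12 pluripotent stem cell markers examined were highest in it among the 5 libraries, and none of the 12 was listed at 0 in any of them. Their summed level was 76901.5 normalised estimated counts there, against 3183 to 9361 in the other 4 libraries. POU5F1 was the most abundant of them in that library at 19441, against 41.6 to 75.4 elsewhere; over the 5 libraries PODXL had the highest mean. The 4 endothelial markers summed to 776 there and to 93.8 to 261 elsewhere, with KDR the most abundant (656 against 26.6 to 78.3). The raised sum was that of KDR: PECAM1 (66.1 against 40.4 to 91.96) and VWF (42.4 against 23.7 to 83.9) lay inside the range of the others, and CDH5 was low throughout (at most 10.9). The 4 epithelial markers summed to 20105, inside the range of 14440 to 21641 elsewhere. KRT8 led that list in every library, while EPCAM (2175 against 9.97 to 46.6) and CDH1 (2104 against 39.9 to 64.9) were highest in G34W replicate 1. The 6 myeloid markers summed to 1081 there, below the 1183 to 1432 elsewhere, through CD68 (850.4 against 981 to 1268), while 3 of the 6 were highest there: CD14 (77.8), ITGAM (46.9) and AIF1 (1.83). The part of these markers in the results that follow was not tested.

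Of the 9 osteoblast markers, the matrix genes COL1A1 (24757 to 43115), COL1A2 (90034 to 138799) and SPARC (72998 to 85409) were high in all 5 libraries. RUNX2, the master regulator of the lineage, lay between 236 and 573. ALPL, the tissue-nonspecific alkaline phosphatase, had 1216 in G34W replicate 1, the library with the high pluripotency markers, and 107 to 428 elsewhere. SPP1 lay between 171 and 649. The late marker IBSP had 2.499 in EV replicate 2 and was listed at 0 in the other 4, SP7 lay between 1.43 and 6.03, and BGLAP between 4.08 and 44.9. IBSP, SP7 and BGLAP were thus low or near absent.

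Across all 16259 genes with a mean of at least 10 over the 5 libraries, limma on log2(value + 1) called 0 genes at an adjusted p under 0.05 in the comparison of G34W with WT (0%), 0 in that of WT with EV (0%) and 0 in that of G34W with EV (0%). At an unadjusted p under 0.05, limma gave 439 genes (2.70%), 157 (0.966%) and 317 (1.95%) in the same order. With each library left out in turn, these unadjusted counts ranged from 258 to 1497, from 109 to 270 and from 257 to 1295, and were highest without G34W replicate 2, WT replicate 1 and G34W replicate 2. Adjusted calls by limma then numbered up to 6, 4 and 1, the first pair without WT replicate 1 and the last without G34W replicate 1, and no prostaglandin gene was among them. Without a WT or G34W library, that group and EV were 1 library each, and the spread came from the remaining pair alone. All 10 prostaglandin genes passed the filter. HPGD passed it only through G34W replicate 1: its mean was 12.4 over the 5 libraries and 7.21 without that library, so in the G34W comparisons it is given with no test. Apart from PTGS2 and HPGD, none of the prostaglandin genes passed either threshold in the G34W comparisons, and none of the 10 did between WT and EV. In a comparison of 2 libraries with 2, an exact permutation test cannot give a two-sided p below 0.333, so none was run for single genes.

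A rule chosen after the data were seen called the groups of a gene separate where their libraries did not overlap. PTGS2 and PTGER4 had both G34W values under both WT values, that is 2 genes in 10, and so had 14.7% of all genes tested. PTGER2 had both G34W values over both WT values, that is 1 gene in 10, and so had 11.6% of all genes. The same 3 genes stood apart when EV replicate 2 was counted with the controls, where the shares of all genes were 9.55% under and 7.87% over. Since PTGS2 was chosen on this contrast, nothing is read from these counts. The separation of PTGER4 was lost when each library was rescaled to a median ratio of 1, and PLA2G4A then lay over both, which left 1 gene under and 2 over, beside 15% and 13.5% of all genes. Taken singly, G34W replicate 1 was under the WT pair for 3 genes and over it for 4, beside 47.6% and 25.9% of all genes. G34W replicate 2 was under the pair for 4 genes and over it for 4, beside 23.2% and 31.8%. PTGS2, PTGER4 and PTGER2 took the same side in each. HPGD, which passed the filter only through G34W replicate 1, is counted among the 4 over in replicate 1 and the 4 under in replicate 2. The median log2 difference of the 10 genes (G34W against WT) was 0.11, with 5 genes above 0 and 5 below. It was 0.30 over the 9 without HPGD, and by library -0.04 in G34W replicate 1 and 0.25 in replicate 2. The median over all genes tested was -0.06 (-0.17 for G34W replicate 1 alone and 0.04 for replicate 2 alone). Fewer cells making a transcript and less transcript per cell cannot be told apart in these bulk libraries.

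**Figure D1:**
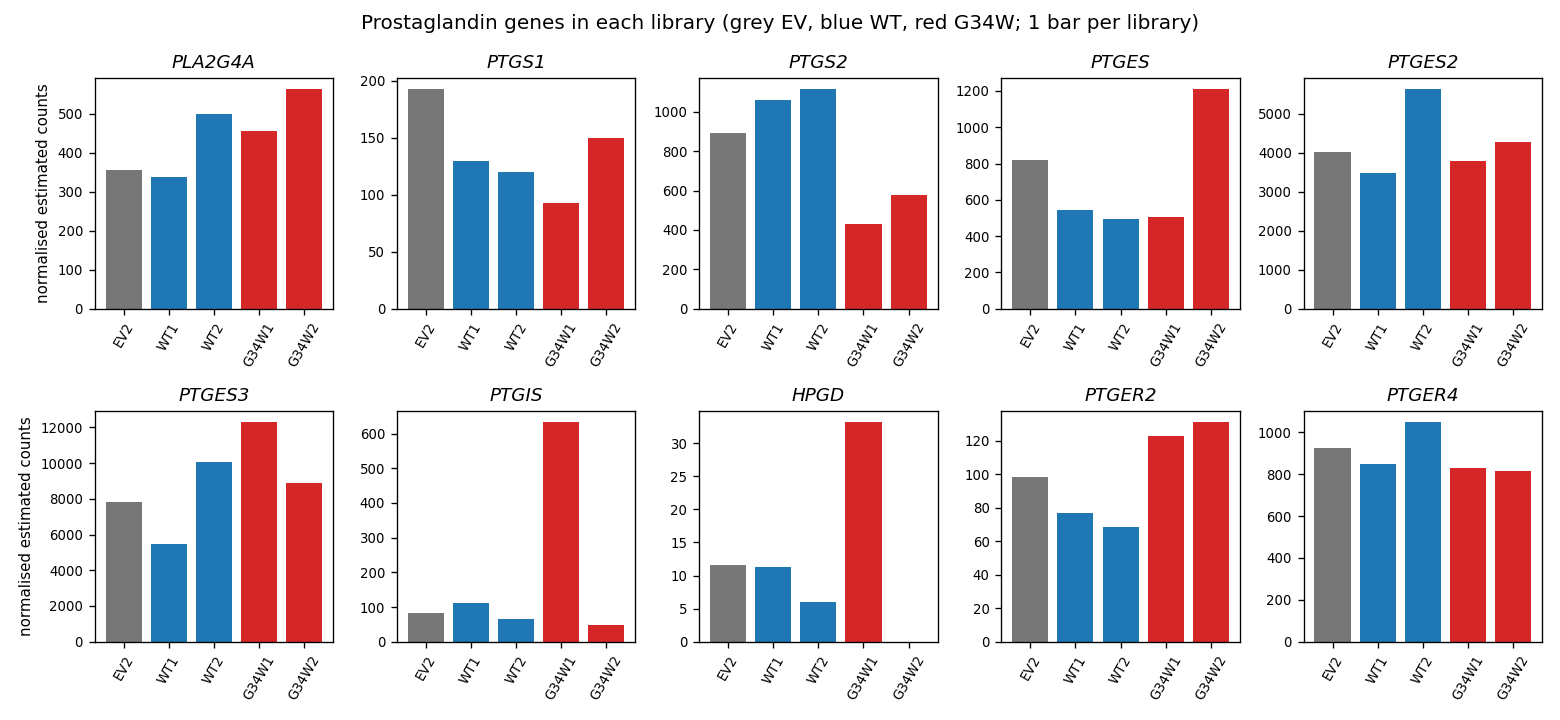
Normalised estimated counts (y axis, starting at 0, a scale for each gene) of the 10 prostaglandin genes in EV replicate 2 (grey), WT replicates 1 and 2 (blue) and G34W replicates 1 and 2 (red), with 1 bar per library and no error bars. The red bars are lowest for PTGS2 (429 and 578) and highest for PTGER2 (123 and 131), and for PTGIS a single red bar reaches 632.

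The first step, release of arachidonic acid, is carried out by the cytosolic phospholipase A2 encoded by PLA2G4A (ENSG00000116711; chr1:186828949-186988981 on GRCh38.p14). It had 357 normalised estimated counts in EV replicate 2, 338 and 499 in WT, and 455 and 563 in G34W. The WT and G34W libraries overlapped. The log2 difference was 0.30 (standard error 0.35, adjusted p = 0.9998 from limma). It was 0.45 without G34W replicate 1 and 0.15 without G34W replicate 2, and 0.02 and 0.58 without WT replicates 1 and 2. PLA2G4A is the neighbour of PTGS2: 148525 bases separate the 2 genes on chromosome 1, and the RefSeq gene table places only the non-coding gene PACERR between them. PTGS2 was lowest in both G34W libraries, while PLA2G4A was highest in G34W replicate 2.

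PTGS2 (ENSG00000073756; chr1:186671791-186680423) encodes the inducible cyclooxygenase, the enzyme that cytokines and growth factors switch on in osteoblasts. It had 893 normalised estimated counts in EV replicate 2, 1058 and 1113 in WT (mean 1085.5, SD 39.3, n = 2), and 429 and 578 in G34W (mean 503, SD 105, n = 2). Both G34W libraries were below all 3 controls, as the choice of the gene requires. Replicate 1 was at 0.395 of the WT mean and replicate 2 at 0.532. The log2 difference of G34W from WT was -1.12, with -1.07 after rescaling and -0.91 without G34W replicate 1, the library with the pluripotency signal. Against EV replicate 2 it was -0.84, a comparison that shares the G34W libraries with the former. Both WT libraries lay above EV replicate 2, at a log2 difference of 0.28 (standard error 0.37, adjusted p = 1 from limma). Of the 10 genes, PTGS2 alone (1 of 10) had both WT values over that of EV replicate 2, as had 29.6% of all genes tested.

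PTGS1 (ENSG00000095303; chr9:122370533-122395703) encodes the constitutive cyclooxygenase. It had 192 in EV replicate 2, 129.8 and 119.8 in WT, and 92.9 and 149 in G34W. Its G34W libraries lay on either side of the WT pair, at a log2 difference of -0.08 (standard error 0.48, adjusted p = 0.9998 from limma) that became 0.26 without G34W replicate 1. EV replicate 2 was highest. PTGS1, PTGES, HPGD and PTGER2, 4 genes in 10, had both WT values under that of EV replicate 2, as had 26.2% of all genes tested. HPGD is counted there on low values, 11.6 in EV replicate 2 against 11.3 and 5.96 in WT. It passed the filter only through G34W replicate 1, with a mean of 9.61 over EV replicate 2 and the WT pair.

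To compare levels between genes, values were divided by the length of each gene's canonical transcript. Per kilobase, PTGS2 exceeded PTGS1 in every library, by a ratio of 5.17 in EV replicate 2, 9.07 and 10.3 in WT, and 5.14 and 4.31 in G34W. The ratio in G34W was thus near that of EV replicate 2 in replicate 1 and below it in replicate 2. In EV replicate 2 PTGS2 was lower and PTGS1 higher than in the WT libraries; in G34W replicate 1 both genes were lower. Because PTGS2 enters this ratio and was chosen on its G34W values, the ratio is a description.

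The promoter windows of the 3 genes whose libraries separated G34W from WT are shown with short motifs in capitals, to give the sequence beside the measurement. Each window runs from 250 bases before to 50 bases after the transcription start in RefSeq (GRCh38.p14), 5′ to 3′ on the strand of the gene. The windows are chr1:186680374-186680673 (minus strand) for PTGS2, chr14:52314062-52314361 (plus strand) for PTGER2 and chr5:40679665-40679964 (plus strand) for PTGER4.
PTGS2: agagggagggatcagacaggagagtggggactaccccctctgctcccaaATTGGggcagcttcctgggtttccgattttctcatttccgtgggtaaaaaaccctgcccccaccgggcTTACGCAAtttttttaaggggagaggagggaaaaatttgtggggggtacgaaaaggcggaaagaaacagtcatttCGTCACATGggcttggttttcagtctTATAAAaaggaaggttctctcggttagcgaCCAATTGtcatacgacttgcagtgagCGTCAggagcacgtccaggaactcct
PTGER2: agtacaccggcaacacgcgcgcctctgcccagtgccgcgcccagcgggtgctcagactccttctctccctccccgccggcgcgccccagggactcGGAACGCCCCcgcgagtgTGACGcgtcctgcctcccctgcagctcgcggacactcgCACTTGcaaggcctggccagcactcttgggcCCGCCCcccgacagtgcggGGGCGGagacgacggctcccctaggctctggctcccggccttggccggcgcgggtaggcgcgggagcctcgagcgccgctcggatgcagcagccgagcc
PTGER4: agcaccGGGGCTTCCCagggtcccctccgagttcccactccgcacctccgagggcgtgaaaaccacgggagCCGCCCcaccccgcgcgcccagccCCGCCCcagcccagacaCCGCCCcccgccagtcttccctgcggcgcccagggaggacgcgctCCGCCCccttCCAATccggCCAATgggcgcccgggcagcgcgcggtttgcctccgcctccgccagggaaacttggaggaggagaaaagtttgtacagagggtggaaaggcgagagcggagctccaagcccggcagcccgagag

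Capitals mark any of 8 motifs, searched on both strands and allowed to overlap: the TATA box (TATAAA), the half-site (CGTCA) and the full site (TGACGTCA) of the cAMP response element, the E-box (CANNTG), a C/EBP site (TTNNGNAA), the NF-kappaB consensus, the GC box (GGGCGG) and the CCAAT box (CCAAT). In the PTGS2 window the TATA box began at position -32, where 1 is the first transcribed base. A CGTCA half-site began at -58 and shared its last bases with an E-box at -55, and a C/EBP site began at -133. A further half-site lay at 25, and CCAAT boxes began at -201 and at -2, the latter overlapping an E-box at -1. The PTGS2 window held no GC box and no match to the NF-kappaB consensus as searched. That consensus is not spelled out here, and sites that depart from it were not searched. The windows of PTGER2 and PTGER4 held no TATA box, 2 and 4 GC boxes, and a match each to the NF-kappaB consensus, and PTGER2 also had a half-site at -137. Among 35116 windows of the same length, 11.5% held the TATA box, 24.6% the half-site, 1.85% the full site, 68.7% an E-box, 36.8% the C/EBP site, 11.3% the NF-kappaB consensus, 44.95% a GC box and 34.6% a CCAAT box. The share of G and C was 50.7% for PTGS2, 74.7% for PTGER2 and 72.0% for PTGER4, against a median of 58.7% over all windows. Windows were found for 9 of the 10 genes, all but PTGIS. A match describes letters in the window and was not linked to any binding measurement.

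Of the terminal synthases, PTGES (ENSG00000148344; chr9:129738349-129753042) encodes the inducible microsomal prostaglandin E synthase, which often works with the inducible cyclooxygenase. It had 817 in EV replicate 2, 546 and 492 in WT, and 506 and 1208 in G34W. The G34W libraries disagreed: replicate 1 lay between the WT libraries and replicate 2 was the highest of the 5. The log2 difference was 0.59 (standard error 0.42, adjusted p = 0.9998 from limma), 1.22 without G34W replicate 1 and -0.04 without G34W replicate 2. In G34W replicate 2, PTGES was therefore at 2.33 of the WT mean while PTGS2 was at 0.532 of it.

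PTGES2 (ENSG00000148334; chr9:128120693-128128440) and PTGES3 (ENSG00000110958; chr12:56663349-56688284) encode prostaglandin E synthases made constitutively, the latter better known as the co-chaperone p23. PTGES2 had 4007 in EV replicate 2, 3472 and 5624 in WT, and 3787 and 4284 in G34W, so both G34W libraries lay inside the WT range. PTGES3 had 7804 in EV replicate 2, 5491 and 10061 in WT, and 12280.2 and 8865 in G34W. The groups overlapped, and the log2 difference of PTGES3 was 0.49 (standard error 0.33, adjusted p = 0.9998 from limma). It was 0.25 without G34W replicate 1 and 0.05 without WT replicate 1, but 0.93 without WT replicate 2. PTGES3 has processed pseudogenes, between which estimated counts can be split; PTGES3P1 to PTGES3P5 had at most 8.19 in any of the 5 libraries.

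PTGIS (ENSG00000124212; chr20:49503874-49568137) encodes prostacyclin synthase. It had 82.2 in EV replicate 2, 112 and 65.9 in WT, and 632 and 49.4 in G34W. G34W replicate 1 was the highest library and replicate 2 the lowest, 12.8 times apart. The log2 difference of G34W from WT of 1.04 (standard error 0.996, adjusted p = 0.9998 from limma) became -0.79 without G34W replicate 1. The high value stood in the library with the pluripotency signal, whose part in it was not tested.

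HPGD (ENSG00000164120; chr4:174490175-174522893) encodes the dehydrogenase that inactivates prostaglandins. It was barely present, with 11.6 in EV replicate 2, 11.3 and 5.96 in WT, and 33.1 in G34W replicate 1, and it was listed at 0 in G34W replicate 2. As with PTGIS, the highest value was that of G34W replicate 1 and the lowest that of replicate 2. Since it entered the tested genes only through G34W replicate 1, its G34W values are a description with no test. The log2 difference from WT was -0.66, made up of 1.88 in G34W replicate 1 and -3.21 in replicate 2, and it moved with the pseudocount, from -2.19 with log2(value + 0.1) to 0.17 with log2(value + 10).

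Of the receptors for prostaglandin E2 that raise cyclic AMP, EP2 is encoded by PTGER2 (ENSG00000125384; chr14:52314312-52328598). It had 98.5 in EV replicate 2, 76.5 and 68.4 in WT (mean 72.4, SD 5.75, n = 2), and 123 and 131 in G34W (mean 127, SD 5.84, n = 2). The groups did not overlap, with EV replicate 2 between them, and the G34W mean was 1.75 times that of WT. The log2 difference was 0.80 (standard error 0.50, adjusted p = 0.9998 from limma), so PTGER2 was not called. It was 0.85 without G34W replicate 1, and lay between 0.72 and 0.88 with each of the 5 libraries left out in turn. Against EV replicate 2 the log2 difference of G34W was 0.36, and that of WT was -0.44. The standard error exceeds the spread of the libraries themselves because limma draws each gene's variance towards that of genes with a similar mean.

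PTGER4 (ENSG00000171522; chr5:40679915-40746800) encodes EP4. It had 927 in EV replicate 2, 846 and 1047 in WT, and 831 and 816 in G34W. The G34W libraries were lowest, but by a small margin: the log2 difference was -0.19 (standard error 0.28, adjusted p = 0.9998 from limma) and -0.14 after rescaling. It was -0.21 without G34W replicate 1, -0.35 without WT replicate 1 and -0.04 without WT replicate 2. Per kilobase, PTGER4 exceeded PTGER2 by a ratio of 6.74 in EV replicate 2, 7.93 and 10.97 in WT, and 4.86 and 4.46 in G34W. The ratio of these receptors was thus lowest in the G34W libraries. The RefSeq span of PTGER4 overlaps TTC33 (847 to 1110 in the 5 libraries), so part of either value could belong to the other.

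**Figure D2:**
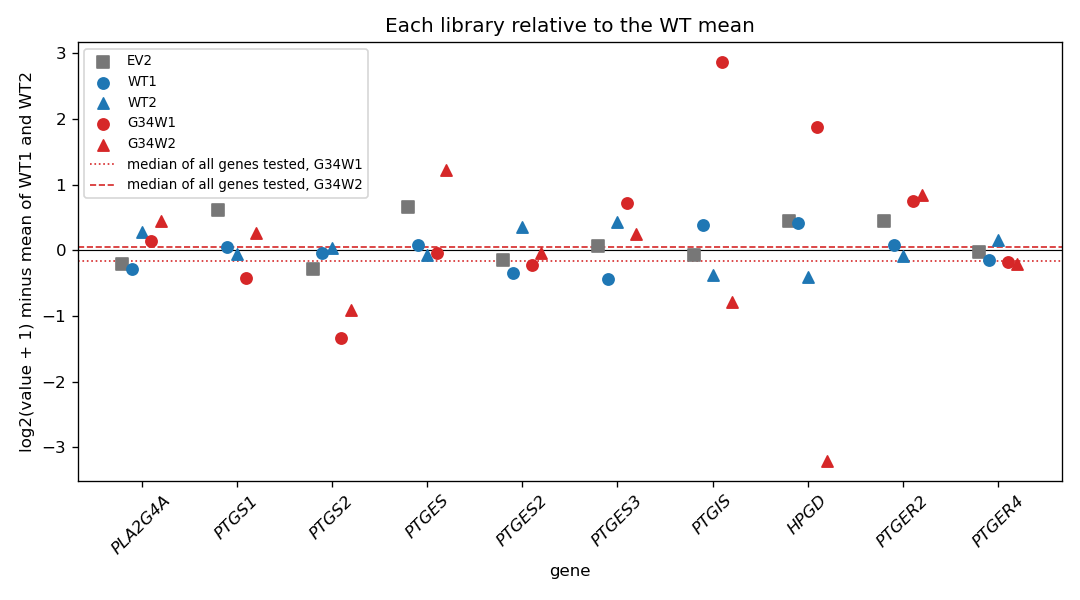
Difference in log2(value + 1) from the mean of the WT libraries (y axis) for each of the 10 genes (x axis), with 1 point per library and lines at the median of all 16259 genes tested for G34W replicates 1 (-0.17) and 2 (0.04). The G34W points lie together below 0 for PTGS2 (-1.34 and -0.91) and above 0 for PTGER2 (0.75 and 0.85), and apart for PTGIS (2.86 and -0.79), HPGD and PTGES.

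**Figure D3:**
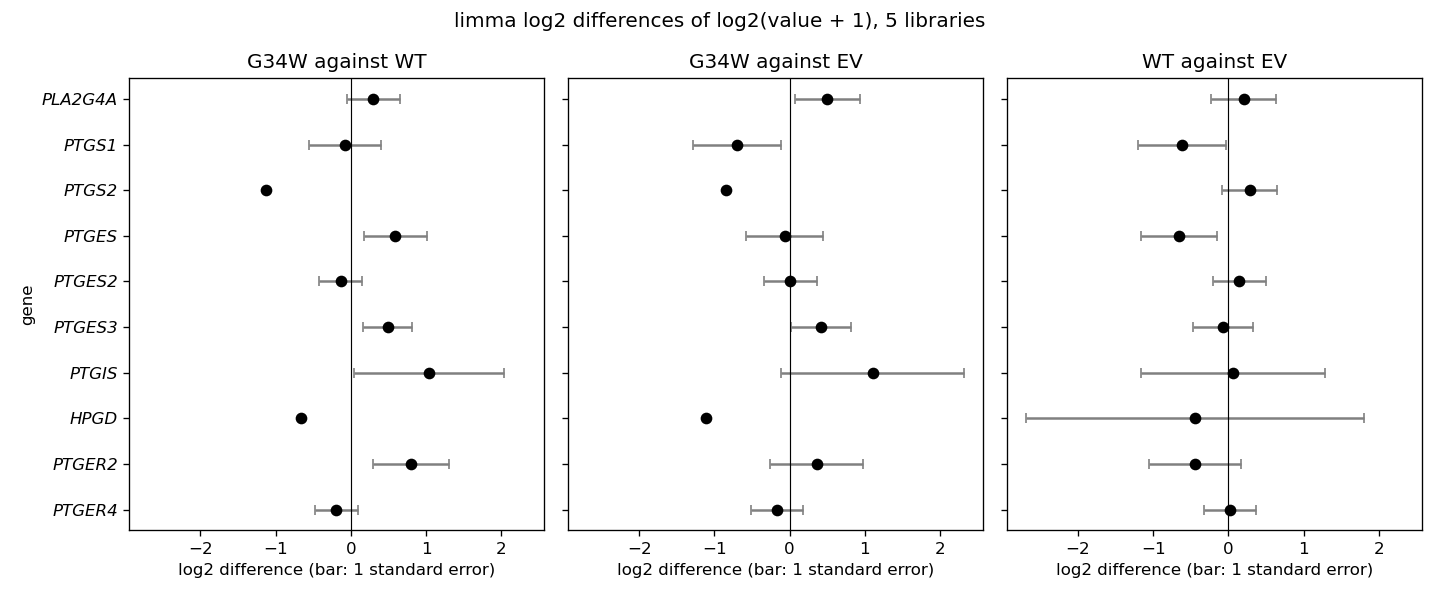
Differences of log2(value + 1) fitted by limma (points) with 1 standard error on either side (bars) for the 10 genes, in the comparisons of G34W with WT, G34W with EV and WT with EV; EV is 1 library. PTGS2 (-1.12 and -0.84) and HPGD have no bars in the G34W comparisons, where their points are a description.

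Per kilobase of transcript, the order of the levels was similar in the 5 libraries. PTGES3 stood above PTGES2, and PTGES2 above the rest, in every library, with means of 4689 and 2650.1 normalised estimated counts per kilobase over the 5 libraries. PTGES (408), PTGER4 (260.4), PTGS2 (180.5) and PLA2G4A (154) followed, then PTGER2 (40.4), PTGIS (33.8), PTGS1 (27.3) and HPGD (4.73). The ranges over libraries overlapped between neighbours from PTGES to PLA2G4A, and among PTGER2, PTGIS and PTGS1. PTGS2 had rank 5 in EV replicate 2 and both WT libraries, rank 6 in G34W replicate 2 and rank 7 in G34W replicate 1. PLA2G4A stood above PTGS2 in both G34W libraries (158 against 95.1 and 195 against 128 per kilobase) and below it in the other 3. PTGIS had rank 9 in 4 libraries and rank 6 in G34W replicate 1.

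**Figure D4:**
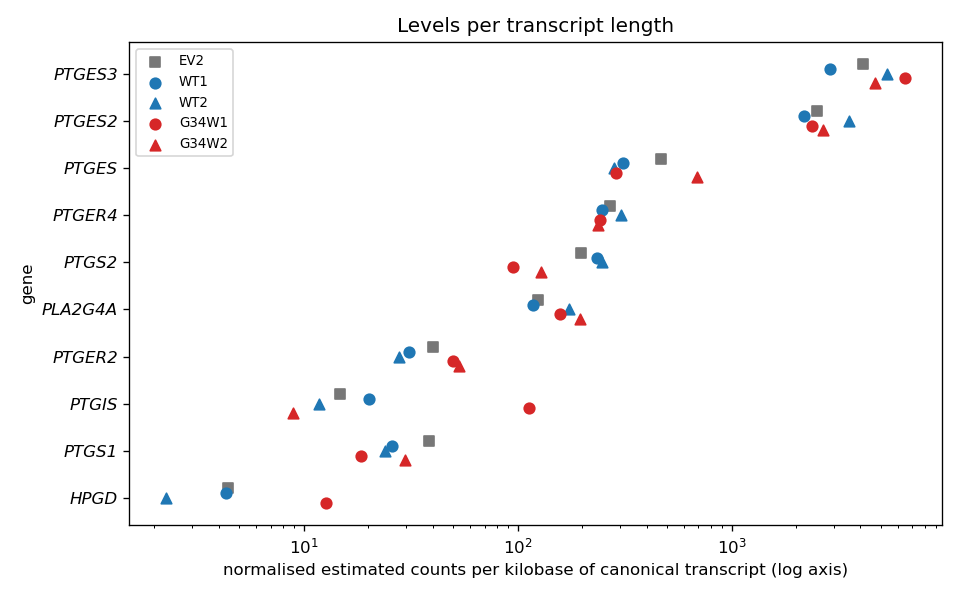
Normalised estimated counts per kilobase of canonical transcript (x axis, log scale) for the 10 genes (y axis, ordered by their mean), with 1 point per library; HPGD in G34W replicate 2, listed at 0, has no point. PTGES3 and PTGES2 lie to the right of all others, and for PTGS2 the G34W points (95.1 and 128) lie to the left of the other 3 (198 to 247).

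The genes with a profile most like that of PTGS2 were sought among 13403 genes with a mean of at least 50, by the root mean square difference of log2(value + 1) after centring each gene on its mean of the 5 libraries. The nearest were HLX (0.07), COL19A1 (0.09), FGF5 (0.12), AC002996.1 (0.14) and PRR16 (0.14). HLX, a homeobox transcription factor, had 538 in EV replicate 2, 578 and 629.7 in WT, and 266 and 323 in G34W. FGF5, a fibroblast growth factor, had 561 in EV replicate 2, 784 and 851 in WT, and 278 and 438 in G34W. Both followed PTGS2 in having G34W replicate 1 lowest. Without that library, only HLX was again among the nearest 5. Likeness over 5 libraries is a description, since many genes share the contrast on which PTGS2 was chosen.

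**Figure D5:**
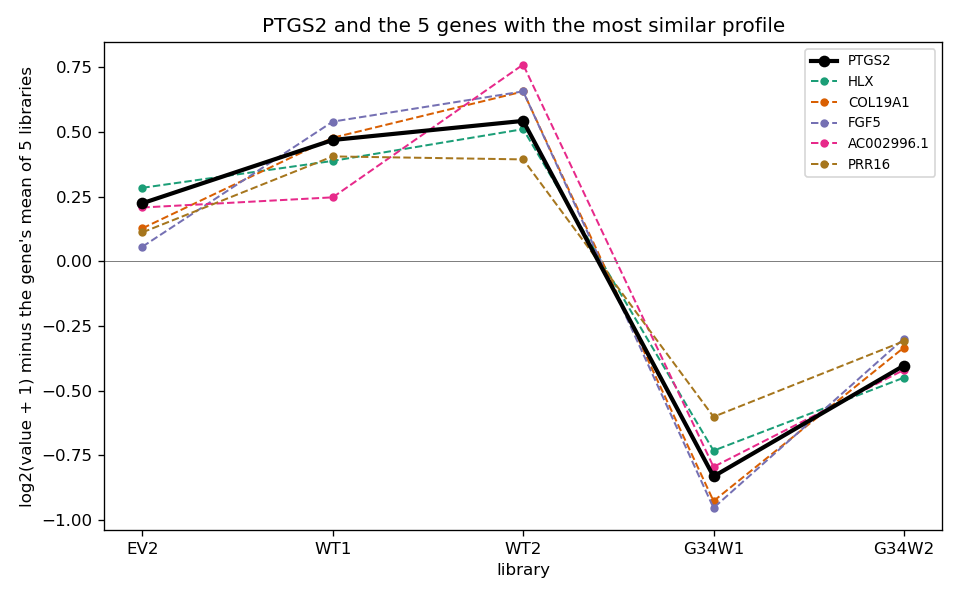
Centred profiles of log2(value + 1) (y axis) in the 5 libraries (x axis) for PTGS2 (black) and the 5 genes nearest to it (coloured, dashed); lines join the libraries only to guide the eye. All 6 genes are above their mean in EV and WT and below it in both G34W libraries.

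Of 20 other prostanoid genes found in the table, 16 passed the filter. PTGER1 and AKR1C3 did so only through the G34W libraries, with means of 7.20 and 3.80 over EV replicate 2 and the WT pair, and are left out of the counts. Of the other 14, limma called 0 in any comparison, with 0 at an unadjusted p under 0.05. For 2 of the 14 both G34W values were under both WT values, against 14.7% of all genes tested, and for 3 they were over, against 11.6%. With EV replicate 2 among the controls 0 were under, against 9.55%, and 3 over, against 7.87%. The median log2 difference from WT was -0.02, against -0.06 over all genes tested, and by library -0.22 in replicate 1 and 0.10 in replicate 2. Those under were PTGFR, the receptor for prostaglandin F2alpha (392 and 369 in WT, 206 and 309.5 in G34W, 288 in EV replicate 2), and PTGR1, a prostaglandin reductase (3834 and 3339.6 in WT, 2741 and 3158 in G34W, 2864 in EV replicate 2). Those over were CBR1, PTGDR2 and TBXAS1. Thromboxane synthase, encoded by TBXAS1, had 48.4 in EV replicate 2, 42.7 and 47.9 in WT, and 109.98 and 62.6 in G34W. AKR1C3, a prostaglandin F synthase, had 271 in G34W replicate 1 and no more than 6.48 in the other 4 libraries compared, but 505 in EV replicate 1, which was left out. The synthases of prostaglandin D2, PTGDS and HPGDS, were at most 1.39 in any of the 5 libraries.

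Of 14 genes of arachidonate supply, 11 were tested and limma called 0; their median log2 difference of G34W from WT was -0.10, against -0.06 over all genes tested, and by library -0.03 in replicate 1 and 0.02 in replicate 2. At an unadjusted p under 0.05, 1 gene of the 11, PLA2G3, passed in each of the G34W comparisons, which share the G34W libraries, beside 2.70% of all genes against WT and 1.95% against EV. It encodes a secreted phospholipase A2. It had 63.7 in EV replicate 2, 75.5 and 37.2 in WT, and 299 and 229 in G34W. Both G34W libraries were above all 3 controls, and the log2 difference from WT was 2.28 (standard error 0.55, unadjusted p = 0.00242 and adjusted p = 0.9998 from limma). MGLL, monoacylglycerol lipase, lay below all 3 controls (8805 and 11889.8 in G34W, 12787 to 15894 in the controls). LPCAT3, a lysophospholipid acyltransferase, lay above them (1295 and 1025 in G34W, 917 to 923 in the controls). That is 1 gene of 11 under all 3 controls and 2 over, beside 9.55% and 7.87% of all genes tested. Of 9 lipoxygenase and leukotriene genes, 5 were tested, with 0 called by limma, 0 at an unadjusted p under 0.05 and a median log2 difference of 0.28, against -0.06 over all genes tested. By library this median was 0.30 in G34W replicate 1 and 0.07 in replicate 2, against -0.17 and 0.04 over all genes. MGST2, a microsomal glutathione S-transferase, was under all 3 controls (211 and 276 in G34W, 309 to 400.5 in the controls). ALOX12, a lipoxygenase, was over them (67.3 and 63.6 in G34W, 43.8 to 51.2 in the controls). That is 1 gene of 5 each way, beside the same shares of 9.55% and 7.87%. ALOX5 was too low to be tested.

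Among the inducers and regulators of PTGS2, 18 of 19 found were tested, limma called 0 and 0 passed an unadjusted p under 0.05. TNF was listed at 0 in all 5 libraries. The 2 G34W libraries differed here: the median log2 difference from the WT mean was -0.47 in replicate 1 and 0.14 in replicate 2, against -0.17 and 0.04 over all genes tested. IL1B, a cytokine that induces PTGS2 in osteoblasts, had 13068 and 15739 in WT and 9693 and 12302 in G34W, with EV replicate 2 at 10954.5. It was the 1 gene of this list with both G34W values under both WT values, and ZFP36, which destabilises cytokine mRNAs, the 1 gene with both over them (104 and 126 in WT, 145 and 244 in G34W, 146 in EV replicate 2). These are 1 gene of 18 each, beside 14.7% and 11.6% of all genes tested. With EV replicate 2 among the controls neither stood apart, and 0 genes of the list did, beside 9.55% and 7.87%. IL6 had 4302 and 3299.99 in WT, and 1960.4 and 5397 in G34W. CEBPD had 2946 and 1978 in WT, and 1719.97 and 4661 in G34W. IL6 and CEBPD were each the lowest of the 5 libraries in G34W replicate 1 and the highest in G34W replicate 2. Any link between the genes of this list and the values of PTGS2 was not tested.

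Of 12 genes of cyclic AMP signalling and response downstream of EP2 and EP4, all were tested, limma called 0 and 0 passed an unadjusted p under 0.05. The median log2 difference of G34W from WT was -0.29, with 9 of the 12 below 0, against -0.06 over all genes tested, with 9248 of 16259 below 0. By library it was -0.45 in replicate 1 and 0.06 in replicate 2, against -0.17 and 0.04, so it rested on replicate 1. Both G34W values were under both WT values for 2 of the 12, against 14.7% of all genes, and over them for 0, against 11.6%. The 2 genes were NR4A1 (230.4 and 224 in WT, 206 and 177 in G34W) and PDE4B (1654 and 1496 in WT, 1038 and 1372 in G34W). NR4A1, an immediate early nuclear receptor, was also below EV replicate 2 (265) and PDE4B was not (1203). Thus 1 of the 12 was under all 3 controls and 0 over, against 9.55% and 7.87%. With each library rescaled to a median ratio of 1, NR4A1 in G34W replicate 1 was no longer under WT replicate 2. DUSP1 had 3308 and 3213 in WT, and 1769 and 3267 in G34W, so only replicate 1 was low.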

How the data were processed

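RNA of hFOB 1.19 libraries was quantified by the authors with kallisto on Ensembl GRCh38 transcripts, imported per gene with tximport and normalised with DESeq2 (tool versions not given in the sources used here). The deposited values are this signal, normalised estimated counts. They are not whole and were not tested as counts; depth is unknown. EV replicate 1 was left out. The 5 other libraries entered 1 limma fit (limma 3.58.1, R 4.3.3; figures with matplotlib 3.10.9) on log2(value + 1), with genes of a mean of at least 10, a variance trend and Benjamini-Hochberg adjustment over 16259 genes (threshold 0.05). The fit was tried on simulated data with 200 genes changed. No simulated library stood apart as G34W replicate 1 does, so that trial does not bear on the calls here. Fold changes on this scale understate those of low genes. Named genes were the 10 members, genes of written lists, the 5 nearest to PTGS2 and the largest changes past the threshold, of which there were none. Named beside these, outside that rule, were gene neighbours, overlaps and pseudogenes of members and the genes called under an alternative. The members and lists were chosen with earlier results of these data known. Transcript lengths are those of GENCODE canonical transcripts lifted to GRCh37 (lengths only); coordinates, promoter windows and neighbours come from RefSeq GRCh38.p14.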

Additional observations from a re-analysis of the deposited data

Results flagged for a closer look

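PTGES3 in the EV replicate 1 library, which entered no comparison, had 203657 normalised estimated counts, above the 5491 to 12280.2 of the other 5 libraries. It was the only 1 of the 10 prostaglandin genes that was higher there than in each of the others, and 7 of the 10 were listed at 0 in that library. The sum of EV replicate 1 was 157595150, against 38821143 to 48024590 in the other 5 libraries. PTGES3 was not alone there: KRT8 had 528776, against 14365.5 to 21534 elsewhere, while 28688 genes were listed at 0. No group held enough libraries for a test of single outlying values.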

How the results depend on the processing

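limma called 0 genes in each comparison under the replicate block, without a filter, with a mean of at least 50, with log2(value + 10), with a constant prior variance, with all 6 libraries and after rescaling, and 0 for G34W against WT with EV replicate 2 joined to WT. With the replicate block, 715, 369 and 275 genes had an unadjusted p under 0.05 (G34W against WT, WT against EV, G34W against EV), against 439, 157 and 317 without it; calling genes at the unadjusted p was chosen after the data were seen. For G34W against WT, the unadjusted count was 791 of 24560 genes without a filter, 735 with EV replicate 2 joined to WT and 25 with all 6 libraries. Deviations from the group mean correlated at 0.09 across genes for libraries of the same number, so the number was not treated as a pairing. With log2(value + 0.1), 1 gene (PPP1R11) was called in each EV comparison. With each library left out in turn, 0 to 6, 0 to 4 and 0 to 1 genes were called: 6 and 4 (MMP11, VASN, DDAH2 and AP002748.5) without WT replicate 1, 1 (AP002748.5) for G34W against WT without WT replicate 2, and 1 (RPL3P4) in each EV comparison without G34W replicate 1. None was a prostaglandin gene, those named were chosen after their values were seen, and the cause was not tested. Without a WT or G34W library, that group and EV were 1 library each, so the spread came from the remaining pair alone. After rescaling, 1 gene had both G34W libraries below WT, against 2, and 2 had them above, against 1. Without G34W replicate 1, 4 lay below and 4 above, beside 23.2% and 31.8% of all genes tested. Without G34W replicate 2, 3 lay below and 4 above, beside 47.6% and 25.9%. With both replicates the shares of all genes were 14.7% and 11.6%, so these shares rose as well. Of the 5 genes nearest to PTGS2, 3 were again found with a mean of at least 10 and 1 without G34W replicate 1.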
